A study of Mus musculus with 6 samples.

Results

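Ferritin and iron transport genes were followed in samples sorted for radial glial progenitors, the stem cells from which the neurons of the embryonic cortex arise. The members were the 9 genes Fth1, Ftl1, Tfrc, Slc40a1, Slc11a2, Slc25a37, Ireb2, Ncoa4 and Steap3, chosen by name among the 32285 genes of the table, and each was found once. Wild-type mouse neocortex of stage E10.5 was dissociated and cultured, and GSK2837808A, an inhibitor of lactate dehydrogenase, or an equal volume of its solvent DMSO was added. The labels give the inhibitor as 100 mM, an unusually high concentration for culture medium that was not verified. About 24 h later, roughly 1000 DAPI-negative cells carrying CD133 at their surface were sorted per sample and their RNA was sequenced in bulk after Smart-seq2 amplification, in 3 libraries with DMSO and 3 with the inhibitor (GSK). The labels do not say whether replicates came from separate cultures or embryos, so p-values rest on a spread between samples that may be technical. The comparison asks how transcripts of such sorted samples change when lactate production is inhibited.

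The 6 libraries held 7187089 to 10224348 reads, and levels are given as the deposited normalised reads. All 4 defining radial glial markers, Prom1, Pax6, Sox2 and Nes, were detected in every library and were lower in GSK, with Prom1 falling from a mean of 1183 ± 72.2 normalised reads to 591 ± 96.3 (SD, 3 libraries a group). Of 12 radial glial markers 9 fell, and of 12 intermediate progenitor and neuron markers 7 rose. Markers of other cells were detected as well. Of 12 mesenchyme markers 1 rose and 2 fell, whereas DESeq2 called 0 lower, and the count of falls was 1 without DMSO replicate 3 and 4 without GSK replicate 1. The summed level of these 12 was 28447 to 36017 normalised reads in DMSO and 18935 to 28400 in GSK libraries. That of the 12 radial glial markers was 23755 to 24671 in DMSO and 12244 to 15254 in GSK libraries. The sorted samples were thus not of radial glial cells alone. Of 6 tested endothelial markers none passed in limma, edgeR or DESeq2, with 2 lower at an unadjusted limma p below 0.05. Among 25 erythroid markers in the table, 22 of 23 tested rose, and their summed level was 2929 to 22107 normalised reads in DMSO and 192377 to 283924 in GSK libraries. Among 22 myeloid markers, 12 of 19 tested rose, from a summed level of 205 to 604 to one of 1330 to 2203. This count was 8 to 16 with 1 library left out and 18 with array weights. It was 1 with a mean of at least 100, a filter that left most of these markers untested. No erythroid or myeloid marker was at 0 throughout a group. The count of rising erythroid markers was 13 without GSK replicate 2 or without GSK replicate 3. In bulk samples fewer cells of a type and less RNA per cell cannot be told apart.

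Cells take up iron bound to transferrin through the transferrin receptor, reduce it in the endosome and release it into the cytosol. There it is stored inside ferritin, a hollow shell of heavy and light chains, passed to mitochondria for heme and iron-sulfur clusters, or exported through ferroportin. Iron regulatory proteins, among them the product of Ireb2, bind a hairpin called the iron-responsive element when iron is scarce, which blocks translation of messages that carry it in the 5′ UTR and stabilises the message of the transferrin receptor, which carries it in the 3′ UTR. Dividing progenitors need iron for DNA synthesis and respiration.

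Iron-responsive elements are shown because iron is known to act on some of the members through them. Annotated coding transcripts (GENCODE vM21, GRCm38) were searched for a C followed by 5 bases, the loop CAGTGN and 5 bases that pair with the first 5, with G-T pairs allowed. Of the 9 genes, 4 held the pattern. It lay in the 5′ UTR of Fth1, Ftl1 and Slc40a1 and occurred 4 times in the 3′ UTR of Tfrc. Among 21866 protein-coding genes, 0.142% held it in a 5′ UTR and 0.59% in a 3′ UTR. The 7 elements, each 30 bases from 5′ to 3′ on the sense strand with the loop in capitals, are as follows.
Fth1 (chr19:9982732-9982761, plus strand): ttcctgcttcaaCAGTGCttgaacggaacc
Ftl1 (chr7:45459778-45459807, minus strand): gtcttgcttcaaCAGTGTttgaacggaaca
Slc40a1 (chr1:45925464-45925493, minus strand): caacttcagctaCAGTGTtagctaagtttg
Tfrc, the first (chr16:32631219-32631248, plus strand): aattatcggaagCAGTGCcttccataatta
Tfrc, the second (chr16:32631598-32631627, plus strand): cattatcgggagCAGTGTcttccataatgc
Tfrc, the third (chr16:32631663-32631692, plus strand): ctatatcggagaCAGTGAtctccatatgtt
Tfrc, the fourth (chr16:32631710-32631739, plus strand): aattatcgggaaCAGTGTttcccataattt

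The elements of Fth1 and Ftl1 were identical at 26 of 30 bases. Those of Tfrc were identical to each other at 18 to 25 of 30 bases, and each matched the Fth1 element at 9 to 11. The remaining 5 genes, Slc11a2 among them, had no match, which says only that these letters with this pairing are not in their annotated transcripts. An element with another loop or an imperfect stem would be missed, so these genes are not shown to lack one. The sequences describe the genes and were not measured here, and a total level per gene does not tell transcripts with an element from those without one.

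Of the 9 genes, 5 rose in GSK libraries and none fell, against 17.0% of the 15073 tested genes that rose, 19.1% that fell and 36.1% that passed in either direction (limma on log2(normalised reads + 1), Benjamini-Hochberg adjusted p below 0.05 over all tested genes). At an unadjusted p below 0.05 none of the 9 was lower either, and edgeR and DESeq2 on the recovered reads called 5 higher and 0 lower. All 3 GSK values lay above all 3 DMSO values for 6 of the 9 genes, against 22.8% of tested genes, and all 3 lay below for none, against 24.4%. Fth1, Steap3 and Slc25a37 were called with a rise of at least 2-fold, as were 5.04% of tested genes. The median log2 fold change of the 9 genes was 0.72, beside 0.01 for all tested genes. The risers were both ferritin chains, the ferritin receptor Ncoa4, the endosomal reductase gene Steap3 and the mitochondrial carrier gene Slc25a37. The genes of the transferrin receptor, ferroportin, the divalent metal transporter and the iron regulatory protein did not pass. Together the 9 genes took 0.21% ± 0.00589 of reads in DMSO libraries (SD, n = 3) and 0.442% ± 0.0382 with GSK, for which a two-sided exact permutation test gave p = 0.1, its minimum with 3 libraries a group. Other shares of the same totals moved as well, with globin genes at 0.144% ± 0.107 and 2.67% ± 0.393 and genes overlapping ribosomal RNA at 21.1% ± 0.799 and 24.4% ± 1.54 (exact permutation p = 0.1 for each). With library totals equalised after both kinds of gene were dropped, 5 of the 9 iron genes were called higher.

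**Figure D1:**
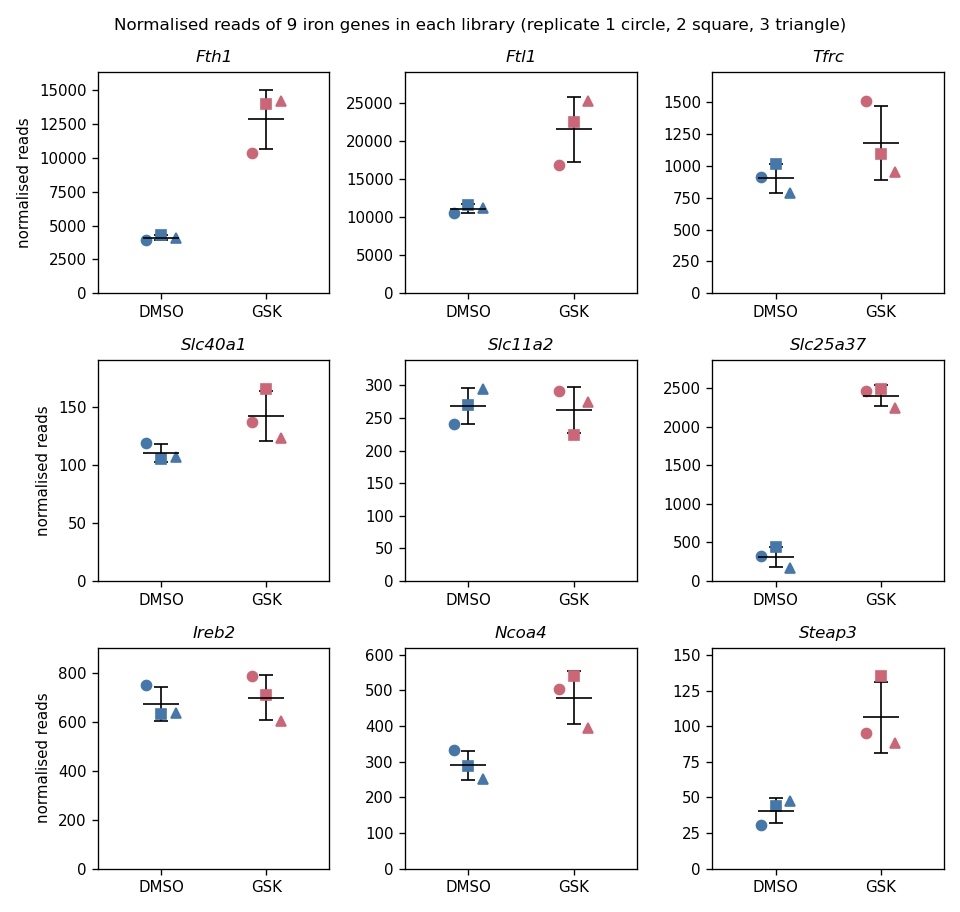
Normalised reads of the 9 iron genes in each library, with DMSO on the left and GSK on the right of each panel and a vertical axis from 0. Points are libraries, horizontal bars are means and whiskers are SD (n = 3). The 3 GSK points lie above the 3 DMSO points for Fth1, Ftl1, Slc40a1, Slc25a37, Ncoa4 and Steap3, and the groups overlap for Tfrc, Slc11a2 and Ireb2.

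Ferritin storage genes were the most abundant members and both rose. Fth1, which encodes the heavy chain that oxidises incoming iron (chromosome 19, 9980598 to 9985098), had 3924, 4294 and 4079 normalised reads in the DMSO libraries and 10362, 14001 and 14192 in the GSK libraries. The DMSO values lay close together, and every GSK value lay far above the highest of them. The mean went from 4099 ± 186 to 12852 ± 2158, or 1.63 as a log2 fold change (standard error 0.15, limma adjusted p = 7.28e-08). Ftl1, which encodes the light chain that helps the iron core to form (chromosome 7, 45457944 to 45459884), reached 10484, 11605 and 11216 normalised reads with DMSO and 16787, 22513 and 25199.7 in GSK libraries. Its groups did not overlap either, with GSK replicate 1 the lowest of the treated libraries for both chains. The log2 fold change of Ftl1 was 0.93 (standard error 0.17, limma adjusted p = 0.000191). Both chains together made up 0.179% ± 0.00556 of all reads with DMSO and 0.383% ± 0.0483 with GSK (exact permutation p = 0.1, the smallest possible).

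The near-copy Ftl1-ps1, annotated as protein coding in the table, also rose, from 151 ± 9.31 to 270.3 ± 51.0 normalised reads (log2 fold change 0.82, limma adjusted p = 0.000597). How reads shared by Ftl1 and its copy were assigned is not given in the sources used here, so the split between them is uncertain. The copy's level was small beside that of Ftl1 in every library. The 6 genes Fthl17a to Fthl17f had at most 1 read in any library.

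Ncoa4 encodes the receptor that carries ferritin to the lysosome for iron release (chromosome 14, 32159865 to 32179855). Its levels were 331, 287 and 250.0 normalised reads in DMSO and 504, 539 and 396 in GSK libraries. The lowest GSK library, replicate 3, was still above the highest DMSO library. The log2 fold change was 0.72 (standard error 0.15, limma adjusted p = 0.000912).

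Of the 3 genes of iron uptake, Steap3 passed the test and Tfrc and Slc11a2 did not. Steap3, which encodes the reductase that prepares iron to leave the endosome (chromosome 1, 120190757 to 120272705), was the least abundant member, with 30.8, 43.8 and 47.4 normalised reads in DMSO and 95.6, 135 and 88.1 in GSK libraries. The groups were well separated although the counts were low, at 29 to 147 reads per library. Its log2 fold change was 1.36 (standard error 0.23, limma adjusted p = 0.000123).

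Tfrc, the gene of transferrin receptor 1 (chromosome 16, 32608920 to 32632794), was at 910.3, 1013 and 784 normalised reads in DMSO and 1505, 1092 and 948 in GSK libraries. The groups overlapped, and GSK replicate 1 stood above the other libraries. The log2 fold change was 0.37 with a 95% interval of 0.04 to 0.69, which did not pass after adjustment (limma adjusted p = 0.0714). Without GSK replicate 3 it was 0.51 and passed (adjusted p = 0.00963), and without GSK replicate 1 it was 0.18. Slc11a2, which encodes a divalent metal transporter that moves iron out of the endosome (chromosome 15, 100387898 to 100425072), showed 240.1, 269.8 and 295 normalised reads with DMSO and 291, 223 and 274 in GSK libraries. Its groups overlapped almost fully. Gm5475, which shares 402 exonic bases with it on the opposite strand, averaged 11.8 and 8.72 normalised reads in DMSO and GSK libraries. The log2 fold change was -0.03 with a 95% interval of -0.35 to 0.28, and its sign changed with the scaling (0.04 with upper quartile scaling, limma adjusted p = 0.888 as deposited).

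Slc40a1 encodes ferroportin, the cellular iron exporter (chromosome 1, 45908068 to 45926523). Its DMSO libraries held 119, 105 and 107 normalised reads, against 137, 165 and 123 with GSK. The GSK values were all higher, by a small margin at the edge. The log2 fold change of 0.35, with a 95% interval of -0.01 to 0.71, did not pass (limma adjusted p = 0.123).

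Ireb2 encodes an iron regulatory protein whose amount is set mainly by protein breakdown when iron is plentiful (chromosome 9, 54863789 to 54912530). Its levels were 753, 632 and 638 normalised reads in DMSO and 787, 712 and 603 in GSK libraries. The groups overlapped, and the log2 fold change was 0.05 with a 95% interval of -0.23 to 0.33 (limma adjusted p = 0.803). It was -0.02 with equal library totals.

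Slc25a37 showed the largest change of the 9 genes. It encodes mitoferrin 1, a carrier that brings iron into mitochondria and is known for supplying heme synthesis in developing red cells (chromosome 14, 69241848 to 69285112). Its levels were 328, 435 and 169 normalised reads in DMSO and 2469, 2495 and 2246 in GSK libraries. DMSO values were spread 2.57-fold whereas GSK values lay within 1.11-fold of each other. The mean went from 311 ± 134 to 2403 ± 137, or 3.05 as a log2 fold change (standard error 0.34, limma adjusted p = 0.000981), the 82nd largest among the 15073 tested genes. Slc25a28, which encodes the broadly expressed mitoferrin 2, averaged 37.1 ± 0.133 normalised reads with DMSO and 38.7 ± 5.78 with GSK, with a log2 fold change of 0.05 and a 95% interval of -0.48 to 0.58. The gene Gm27223, which overlaps Slc25a37 on the opposite strand by 92 exonic bases, averaged 1.74 and 27.3 normalised reads in DMSO and GSK libraries, far fewer than Slc25a37. Reads of such pairs cannot be told apart, since the Smart-seq2 method keeps no record of strand. Gm31748 overlaps Slc25a37 and Gm10252 overlaps Ftl1 in the same way, and neither was analysed here.

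**Figure D2:**
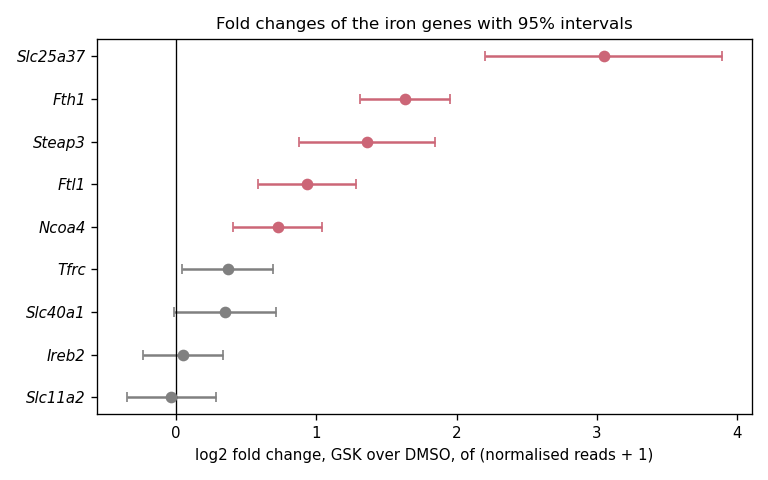
Log2 fold changes of the 9 iron genes on the log2(normalised reads + 1) scale (horizontal axis), as points with 95% intervals from limma. Red marks the 5 genes that passed the test and grey those that did not. Slc25a37 lies at 3.05 and Fth1 at 1.63, and the intervals of Slc40a1, Ireb2 and Slc11a2 include 0.

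Erythroid marker levels were higher in GSK, as were several of these genes, and the part of these markers in the results was not tested. The DMSO library with the fewest erythroid marker reads, replicate 3 with a sum of 2929, also had the least Slc25a37, and replicate 2 with the highest sum of 22107 had the most. Tfrc had the same order in DMSO. Fth1, Ftl1, Ncoa4 and Steap3 did not, and Steap3 was highest in replicate 3, at 47.4. In GSK libraries Slc25a37 did not follow the erythroid order, with 2469 at the lowest sum and 2246 in replicate 3. Across the DMSO libraries the erythroid sum differed 7.55-fold, Slc25a37 differed 2.57-fold, Tfrc 1.29-fold, Ftl1 1.11-fold and Fth1 1.09-fold. Between the group means the erythroid sum was 18.5-fold higher in GSK, the myeloid sum 5.17-fold, Slc25a37 7.74-fold, Fth1 3.14-fold and Ftl1 1.94-fold.

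**Figure D3:**
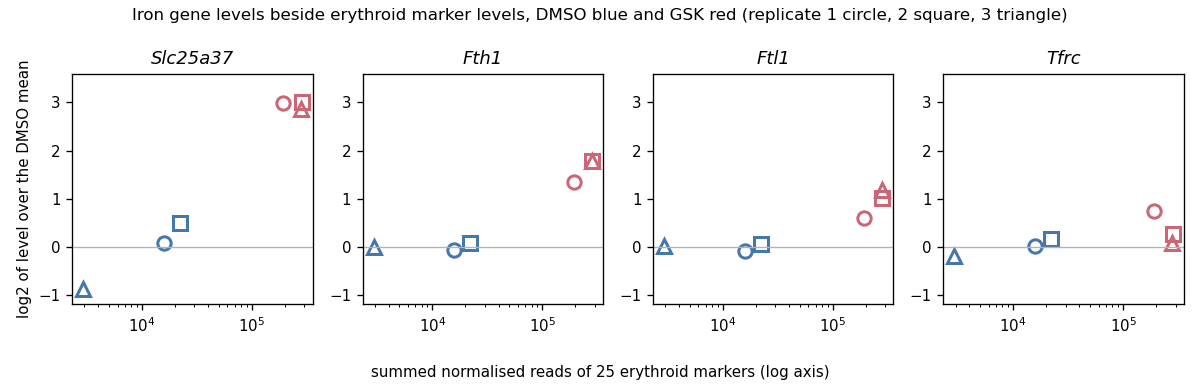
Level of Slc25a37, Fth1, Ftl1 and Tfrc in each library as log2 of its ratio to the DMSO mean (vertical axis) against the summed normalised reads of 25 erythroid markers (horizontal log axis). Blue symbols are DMSO and red symbols GSK libraries. Among DMSO libraries Slc25a37 is lowest where the erythroid sum is 2929 and highest where it is 22107. Fth1 and Ftl1 vary by 1.09-fold and 1.11-fold there. Among GSK libraries Fth1 and Ftl1 are lowest and Tfrc highest where the erythroid sum is 192377, whereas Slc25a37 varies by 1.11-fold.

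Per kilobase of each gene's main coding transcript, the order of the members also changed. In DMSO libraries Ftl1 stood first with 11469 ± 588 normalised reads per kilobase and Fth1 second with 4412 ± 200.2, followed by Tfrc with 185 ± 23.4 and Ireb2 with 117 ± 11.8. Slc11a2, Ncoa4 and Slc25a37 came next at 88.6, 86.6 and 74.4, and neighbours among these overlapped between libraries. Slc40a1 with 32.7 and Steap3 with 13.9 were last. In GSK libraries Ftl1 and Fth1 stayed first and second with 22211 and 13834 normalised reads per kilobase, and Slc25a37 moved up from the seventh place to the third with 576 ± 32.7. Tfrc with 242 came next, ahead of Ncoa4 with 144 and Ireb2 with 121, whose ranges overlapped. Slc11a2 with 86.9 followed, and Slc40a1 with 42.0 and Steap3 with 36.2, which overlapped, came last.

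Plain ratios within a library do not depend on scaling and are given for 4 pairs of genes, without correction for transcript length. The log2 differences and their tests used normalised reads with 1 added, so they depend slightly on scaling. The ratio of Tfrc to Fth1 was 0.232, 0.236 and 0.192 in DMSO and 0.145, 0.078 and 0.0668 in GSK libraries. Every GSK value was below every DMSO value, and the mean difference on the log2 scale was -1.27. Ftl1 had 2.67, 2.70 and 2.75 reads for each read of Fth1 in DMSO and 1.62, 1.61 and 1.78 in GSK libraries. This pair varied least within groups, and its log2 ratio was lower in GSK by a difference of -0.70. Relative to Fth1, Ncoa4 was lower too, with ratios of 0.0845, 0.0668 and 0.0613 in DMSO and 0.0486, 0.0385 and 0.0279 in GSK libraries. The ratio of Slc25a37 to Slc25a28 was 8.83, 11.8 and 4.55 in DMSO and 74.8, 64.6 and 50.4 in GSK libraries, a log2 difference of 3.0. Each of the 4 comparisons gave p = 0.1 in a two-sided exact permutation test, the smallest that 3 against 3 allows, and 0.1 after adjustment over the 4.

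**Figure D4:**
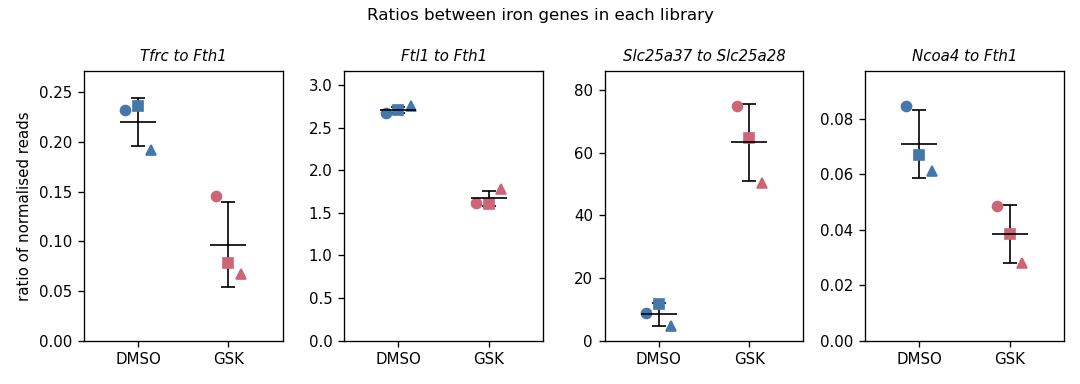
Ratio of normalised reads of 4 pairs of iron genes in each library (vertical axis from 0), with DMSO on the left and GSK on the right of each panel, means as horizontal bars and SD as whiskers (n = 3). The groups do not overlap in any panel, with the GSK libraries lower for Tfrc, Ftl1 and Ncoa4 relative to Fth1 and higher for Slc25a37 relative to Slc25a28.

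Other genes of iron handling were counted in 7 lists, of which 131 genes were in the table and 123 tested. In these lists 52 rose and 10 fell, and each list is to be read against the 17.0% of all tested genes that rose and the 19.1% that fell. Of 19 tested genes of iron uptake, export and storage, 4 rose and 1 fell, with a median log2 fold change of 0.13, a share of rises near that of all tested genes. The count of rises ranged from 1 at a threshold of 0.01 to 7 with array weights. Without GSK replicate 3 the counts were 2 and 2, and 2 fell without DMSO replicate 1. Slc39a8, which encodes a metal ion transporter of the ZIP family, went from 55.7 ± 40.7 to 786 ± 51.9 normalised reads (log2 fold change 4.13, limma adjusted p = 0.0144), a call lost without GSK replicate 2 (0.0618) or GSK replicate 3 (0.0562) and with a replicate block (0.0502). Tfr2, the gene of the second transferrin receptor, rose from 6.58 ± 2.55 to 22.2 ± 6.60, and Slc22a17, which encodes a receptor for the iron carrier protein lipocalin 2, had a log2 fold change of 0.51 that lost its call without GSK replicate 3 (adjusted p = 0.0678). Steap1, a relative of Steap3, fell from 39.4 ± 11.2 to 10.9 ± 5.82 normalised reads. In DMSO libraries Slc39a8 and Tfr2 had the order of the erythroid marker sum, lowest in replicate 3 and highest in replicate 2. Slc22a17 and Steap1 did not have that order. The part of erythroid markers in these changes was not tested.

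Genes that control iron sensing showed few calls, with 1 of 11 higher and 1 lower and a median of 0.00, and 2 lower without GSK replicate 1. In this list edgeR and DESeq2 each called 0 higher and 2 lower. Aco1, which encodes another iron regulatory protein and was named after its values were seen, went from 828 ± 34.0 to 668 ± 45.8 normalised reads. All its GSK values lay below all DMSO values, but its log2 fold change of -0.31 did not pass (limma adjusted p = 0.0547). Zfp36l1, which encodes an RNA-binding protein that promotes message decay, fell with a log2 fold change of -0.89. Its relative Zfp36 had a log2 fold change of 0.65 with an adjusted p of 0.0479, and was not called by edgeR (0.0562) or DESeq2 (0.0775). It also lost its call without a filter, with equal library totals, and without DMSO replicate 1 or 2 or GSK replicate 2 or 3, with adjusted p-values up to 0.246. Of 7 other tested genes known or proposed to carry an iron-responsive element, 3 rose and 1 fell, with 2 lower without GSK replicate 1. Alas2, the erythroid enzyme that starts heme synthesis, went from 223 ± 115 to 2459 ± 424 normalised reads, and the phosphatase gene Cdc14a fell with a log2 fold change of -1.10. App, the amyloid precursor gene, had a log2 fold change of 0.46 and lost its call without DMSO replicate 2 (limma adjusted p = 0.0614) or without GSK replicate 2 (0.0753).

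Heme genes rose in majority. Of 21 genes of heme synthesis, transport and breakdown, 15 rose and none fell, with a median log2 fold change of 0.67. None was lower at an unadjusted p below 0.05 in limma, nor by edgeR or DESeq2. Cpox and Fech, which encode late enzymes of heme synthesis, went from 40.0 ± 5.67 to 191 ± 9.40 and from 304 ± 99.3 to 1619 ± 165 normalised reads. Uros, which encodes another enzyme of that route, had a log2 fold change of 1.49 and also rose, and Blvrb, which encodes a biliverdin reductase, went from 124 ± 37.1 to 962 ± 173. These rises stood beside the erythroid marker sums of 2929 to 22107 in DMSO and 192377 to 283924 in GSK libraries, and their part in the result was not tested. Alas2 is on both lists.

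Of 28 iron-sulfur cluster genes 6 rose and 6 fell, shares near the 17.0% and 19.1% of all tested genes, and the median log2 fold change was 0.09. Bola2, which encodes a cytosolic cluster chaperone, fell with a log2 fold change of -0.67. Hspa9, the gene of the mitochondrial chaperone mortalin, had -0.49 and lost its call without DMSO replicate 2 (adjusted p = 0.0571). The count of rising genes ranged from 1 (without DMSO replicate 3 or GSK replicate 3) to 10 (without GSK replicate 1), and was 3 without DMSO replicate 2 and 2 without GSK replicate 2.

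Most tested genes of a further list rose, which holds mainly general lysosomal genes such as proton pump subunits and proteases. Of 22 genes of ferritin autophagy and lysosomal acidification 17 rose, 5 did not pass and none fell, against 17.0% and 19.1% of all tested genes, with a median log2 fold change of 0.56, and none was lower at an unadjusted p below 0.05 in limma or by edgeR or DESeq2. The protease genes Ctsd, Ctsb and Ctsl had log2 fold changes of 1.27, 1.00 and 0.74, and the lysosomal membrane gene Lamp2 of 0.79. Atg9a, Rb1cc1 and Tax1bp1 rose as well, whereas Herc2, Atg5, Atg7, Atp6v0a1 and Tfeb did not pass. Myeloid cells are rich in lysosomes, and the myeloid marker sum was 5.17-fold higher in GSK beside this list. Its part in the result was not tested. Of 19 tested NRF2 and ferroptosis genes 8 rose and 1 fell, with a median of 0.34. NRF2 is a transcription factor that induces antioxidant genes and ferritin. Its targets Nqo1 and Hmox1, the latter encoding the enzyme that frees iron from heme, rose from 37.8 ± 3.52 to 100.1 ± 15.9 and from 67.9 ± 3.25 to 177 ± 29.9 normalised reads. The NRF2 targets Gclc and Txnrd1, named after their values were seen, did not pass. Their log2 fold changes were -0.19 and -0.23, with all GSK values below all DMSO values. Srxn1, Gclm and G6pdx of the same list, named in the same way, rose with log2 fold changes of 1.18, 0.77 and 0.41. Their limma adjusted p-values were 0.000274, 0.00261 and 0.0266. Me1, so named too, had 0.34 and did not pass (limma adjusted p = 0.172). Tfam, which encodes a mitochondrial DNA-binding factor and was named likewise, was the gene that fell, with -0.45. Slc3a2, which encodes a subunit of the cystine importer, and Acsl4, which makes membranes sensitive to iron-driven oxidation, rose with log2 fold changes of 1.04 and 1.01. Slc7a11, the importer's other subunit, also named after its values were seen, had 0.19 and did not pass (limma adjusted p = 0.417).

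**Figure D5:**
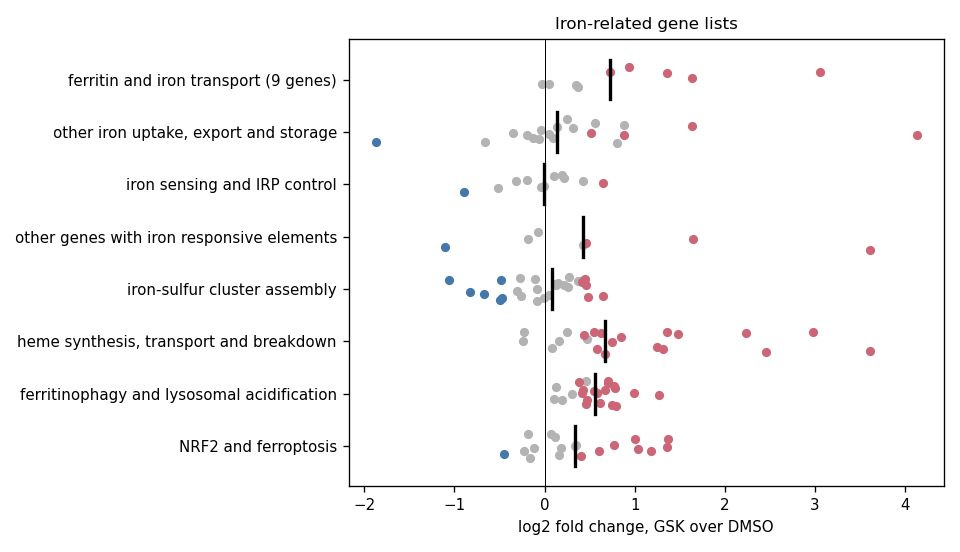
Log2 fold changes (horizontal axis) of the tested genes in the 9-gene group and in 7 further iron-related lists, 1 point per gene, with black bars at the list medians and vertical scatter added for visibility. Red genes rose, blue genes fell and grey genes did not pass the limma test. The medians are 0.72 for the 9 genes, 0.67 for heme genes, 0.56 for lysosomal genes and 0.09 for iron-sulfur cluster genes.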

How the data were processed

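RNA of 6 sorted samples was sequenced. The deposited signal values are the authors' normalised read counts, 1 value per gene and library. The submitters' processing notes list STAR, DESeq, GRCm38 and mm10 without saying how each was used. The counting tool, annotation and strand setting were not given in the sources used here. The table's 118098 rows repeat each gene's values on every transcript, and 1 row per gene was kept. Every nonzero value was a whole multiple of its library's smallest value within 0.01 (100% in each library), so whole reads were recovered. Coordinates came from GENCODE vM21 (GRCm38), matched by gene identifier for 32235 genes.

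The main test was limma 3.58.1 (R 4.3.3, trended and robust priors) on log2(value + 1) over 15073 genes whose mean reached 10. The model held only the group, and p-values were adjusted by Benjamini-Hochberg, with calls at 0.05. Such fold changes understate those of low genes. Single values were compared by exact permutation. Alternatives included edgeR 4.0.16 and DESeq2 1.42.0 on recovered reads. Replicates differed by more than sampling noise (chi-square per degree of freedom 4.46 to 14.1). Lengths are those of the coding transcript with the best APPRIS rank. Each list named up to 4 called genes with the smallest p, or up to 2 where none was called. The genes so named for the marker lists of other cells are not printed. Some genes that the rule names in the iron lists are not reported here. The members and lists were chosen with earlier results of these data known.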

Additional observations from a re-analysis of the deposited data

How the results depend on the processing

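The 5 rising iron genes kept their direction and call in all 19 alternatives, except that Steap3 was not tested with a mean of at least 100. Their log2 fold changes ranged from 1.56 to 1.78 for Fth1, 0.81 to 1.10 for Ftl1, 0.62 to 0.87 for Ncoa4, 1.18 to 1.70 for Steap3 and 2.66 to 3.34 for Slc25a37. Tfrc was also called with the replicate block (adjusted p = 0.0389), array weights (0.0154) and gene by gene array weights (0.0402), and Slc40a1 with both kinds of weights (0.000177 and 0.00442). The first estimator of weights did not converge, and the second was chosen after seeing the data. GSK replicate 2 had the largest weight in each, 11.96 and 3.81, beside at most 1.17 and 1.30 for any other library. The sign of Slc11a2 turned when totals were equalised after dropping globin and rRNA-overlapping genes (0.0072) and with upper quartile scaling (0.039), and that of Ireb2 with equal library totals (-0.019). Leaving out 1 library gave -0.11 to 0.079 for Slc11a2 and -0.038 to 0.15 for Ireb2. The cause was not tested. Context genes called lower numbered 10, and 17 with array weights. Genes called higher over the whole table numbered 2563, 4651 with array weights, 3963 with gene by gene weights and 1562 at a threshold of 0.01. Same-numbered libraries showed no clear shared deviation (correlations 0.0131, -0.0236 and 0.0529 for replicates 1, 2 and 3). Correlations between unlike numbers ran from -0.075 to 0.072. With 3 libraries a group this does not settle whether replicate numbers pair the libraries. With the replicate block 6 iron genes were called higher in place of 5, 14 erythroid markers in place of 22, and 11 intermediate progenitor and neuron markers in place of 7. With 3 libraries per group no exact permutation test can go below 0.1.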

Other observations

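Genes with the pattern most like a member were sought among 9569 tested genes with a mean of at least 100, by the root mean square difference of gene-centred log2 levels over the 6 libraries. Closest to Fth1 were Ypel5, Lss and Creg1, at 0.0915, 0.0929 and 0.106 log2 units. Closest to Ftl1 were Rnasek, Pmvk and Spef1, at 0.0437, 0.048 and 0.0541. Tfrc was closest to Gm47512, Acbd5 and Plxna4, at 0.047, 0.0473 and 0.0474. These distances carry no test.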
